A study of Mus musculus with 45 samples.

Results

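The genes described here are 7 markers of fetal and regenerating gut epithelium, namely Ly6a, Spp1, Gja1, Anxa1, Anxa3, Clu and Il33. They were taken by name as rows of both deposited expression tables, 1 of cells sorted from mouse small intestine and 1 of embryonic intestinal organoids, and are 7 of the 52636 genes that each table lists. All 7 were found in both tables. In the sorted cells some markers passed the thresholds given below between stages and between gut regions. Most of these were genes that met the expression filter through 1 group alone, and most results were lost when single libraries were left out. In the organoids the markers were mostly higher at the high than at the low Rspondin dose, with the exceptions given below and with Gja1 near 0 CPM. All 7 had higher culture means in the 2 Lgr5-deficient cultures than in the 3 wild-type cultures. How many of all genes share either order is not given, so neither order alone is read as particular to the markers.

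Fetal gut epithelium is made of rapidly growing progenitors that express surface and secreted proteins that the adult crypt base largely lacks. After injury, adult epithelium can switch part of this program back on, with YAP and TEAD factors as known regulators, before the homeostatic program of Lgr5+ stem cells returns. Ly6a encodes the surface protein Sca-1 and is also induced by interferon. Spp1 encodes osteopontin, a secreted matrix glycoprotein that binds integrins and CD44. Gja1 encodes connexin 43, a gap junction subunit, Anxa1 and Anxa3 encode calcium-dependent membrane-binding annexins, Clu encodes the secreted chaperone clusterin, which marks revival stem cells after damage, and Il33 encodes a nuclear alarmin cytokine of the interleukin 1 family. Lgr5 itself is a receptor of Rspondins, the secreted proteins that raise Wnt signaling by keeping Frizzled receptors at the cell surface.

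The study asked what the Lgr5 receptor does in intestinal stem cells before and after birth. In the Lgr5-DTReGFP line a cassette with the diphtheria toxin receptor and eGFP replaces the gene's own product, so heterozygotes (HE) carry 1 intact copy and homozygotes (KO) carry none. eGFP+ cells were sorted from whole small intestine of E16.5 HE and KO embryos, in 2 pools per genotype from litters 85 (7 HE and 2 KO embryos) and 97 (8 HE and 6 KO embryos), from 2 individual HE embryos at E18.5, and from 2 HE mice aged 2 months, with separate libraries for duodenum and ileum. A second line served for adult deletion. Lgr5-CreERT2 mice aged 2 months, either Cre/+ (HE, 2 mice) or Cre/flox for exon 16 (cKO, 3 mice), received 2 mg tamoxifen, and ileal cells positive for eGFP and the Tomato reporter were sorted 48 hours later. All sorted cells therefore lack at least 1 working Lgr5 copy, no sorted group was wild type, and the Cre is expressed only from the Lgr5 locus. Organoids of E17.5 Lgr5-DTReGFP embryos, 1 embryo per culture, were 3 wild-type (WT) and 2 KO cultures at passage 4. Each culture was grown with Rspondin 1, 2 or 3 (Rspo1, Rspo2, Rspo3) at 100 or 5 ng/ml, in medium with EGF and noggin, giving 30 organoid libraries beside the 15 of sorted cells. Organoids hold epithelium without the surrounding stroma. All values are CPM, read counts scaled to the total of the library. Fold changes are differences of log2(CPM + 1) with their standard error (SE), and FDR is the Benjamini-Hochberg adjusted p of limma over all genes tested. A gene is called at an FDR below 0.1 with a fold change above 1.5 in sorted cells and at an FDR below 0.05 in organoids.

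The markers lie on 5 chromosomes (GRCm38, GENCODE M21 models, all protein coding). They are Ly6a (ENSMUSG00000075602, chr15:74994877-74998031, minus strand), Spp1 (ENSMUSG00000029304, chr5:104435118-104441050, plus), Gja1 (ENSMUSG00000050953, chr10:56377330-56402513, plus), Anxa1 (ENSMUSG00000024659, chr19:20373428-20390944, minus), Anxa3 (ENSMUSG00000029484, chr5:96793339-96845966, plus), Clu (ENSMUSG00000022037, chr14:65968483-65981547, plus) and Il33 (ENSMUSG00000024810, chr19:29925114-29960718, plus). Exons of Spp1 overlap the same-strand gene Gm42793 and those of Anxa3 overlap Gm42603, so their reads could be shared. Gm42793 reached 0.85 CPM in sorted cells and 11.3 CPM in organoids, and Gm42603 reached 3.05 and 5.6 CPM. RefSeq promoter windows (GRCm38.p6), here the 250 bases before a transcript start, were at hand for 4 of the 7 genes. The windows at the start of the gene are shown for Spp1, Gja1 and Il33, 5′ to 3′, because their patterns below differ. Gja1 was near 0 CPM in organoids. On the log2(CPM + 1) scale Spp1 had the largest dose change there in KO with Rspo2 and with Rspo3, though not in the other contrasts. Il33 had the smallest of the markers tested in each contrast. Capitals mark matches, on either strand, to CATTCC (TEAD), TGANTCA (AP-1), CTTTGAT (TCF/LEF), TTCNNNGAA (STAT) or TATAAA.
Spp1, chr5:104434861-104435110, plus strand: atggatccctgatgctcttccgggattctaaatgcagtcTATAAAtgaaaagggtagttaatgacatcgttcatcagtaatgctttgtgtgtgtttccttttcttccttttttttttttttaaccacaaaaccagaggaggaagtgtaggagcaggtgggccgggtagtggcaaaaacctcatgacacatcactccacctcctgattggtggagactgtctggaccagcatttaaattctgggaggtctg
Gja1, chr10:56377050-56377299, plus strand: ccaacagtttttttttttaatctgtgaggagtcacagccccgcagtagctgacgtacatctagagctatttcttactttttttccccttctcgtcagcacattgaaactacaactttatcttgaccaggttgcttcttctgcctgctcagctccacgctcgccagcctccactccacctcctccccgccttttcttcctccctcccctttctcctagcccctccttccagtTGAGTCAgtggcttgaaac
Il33, chr19:29924863-29925112, plus strand: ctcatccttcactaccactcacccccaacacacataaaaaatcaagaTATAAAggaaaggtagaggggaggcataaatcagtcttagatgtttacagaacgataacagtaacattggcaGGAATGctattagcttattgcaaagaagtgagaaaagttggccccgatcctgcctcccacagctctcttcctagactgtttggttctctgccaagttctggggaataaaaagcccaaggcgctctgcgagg
Spp1 held a TATAAA match 211 bases before its start, Gja1 an AP-1 match 19 bases before, and Il33 a TATAAA match 203 bases before and a TEAD match 131 bases before on the opposite strand. The Anxa1 window (chr19:20390672-20390921) held a TEAD match 236 bases and a TATAAA match 32 bases before its start, and overlaps a first exon in GENCODE. Over all 32851 windows of that length, 12.6% held the TEAD letters, 6.75% the AP-1 letters, 3.21% the TCF/LEF letters, 7.02% the STAT letters and 12.4% TATAAA. Spp1 and Il33 each have a further RefSeq start, whose window is not printed: that of Spp1 held none of these motifs, and that of Il33 held a TEAD match 107 bases and a TATAAA match 29 bases before the start. The matches are descriptions of the letters and were not tested against the data.

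Depth, recovered from the steps between low CPM values, was 1275900 to 9905500 reads per sorted library and 18127700 to 33105700 reads per organoid library. A single read was thus worth 0.101 to 0.784 CPM in sorted cells and 0.0302 to 0.0552 CPM in organoids, and a sorted value of a few CPM rests on few reads. Lgr5 read 104.25 and 125.1 CPM in the E16.5 HE pools against 64.75 and 51.65 CPM in the KO pools (log2 fold change -0.97, SE 0.18, FDR 0.0795, limma). In the Cre line Lgr5 was not lower in the libraries labelled cKO (89.15, 109.35 and 90.65 CPM) than in those labelled HE (52.8 and 87.55 CPM). Only exon 16 is deleted in this line, so a transcript can remain. The genotype of a pair of these libraries is in doubt, since in the study's own table the first HE library carries a cKO name and the second cKO library an HE name. Epcam was between 843.5 and 1279 CPM in every sorted library. The summed level of 10 mesenchymal markers ran from 766.5 to 1779 CPM in E16.5 HE, from 182.55 to 477.85 CPM in E16.5 KO, from 68.05 to 79.35 CPM at E18.5, from 2.95 to 6.8 CPM in adult HE cells and from 12.1 to 54.85 CPM in the Cre line. In the organoids it was 4.75 to 17.55 CPM. Xist was 1030 to 3926 CPM in WT and at most 213.2 CPM in KO organoids, and the Y-linked Ddx3y at most 0.45 CPM in WT and 55.0 to 73.5 CPM in KO organoids. The WT cultures were thus female and the KO cultures male, so Lgr5 genotype and sex cannot be told apart in them. The 213.2 CPM came from 1 library, KO culture 2 with Rspo1 at 100 ng/ml, which stood apart from the others of its culture. In the sorted Lgr5-DTReGFP cells sex was not balanced either. There Xist was 6.65 to 10.75 CPM in adult HE libraries and 11.3 and 5175 CPM in the E18.5 embryos. At E16.5 it was 638.6 and 1103.5 CPM in HE pools and 1.55 and 1224 CPM in KO pools. The part of sex in the stage and E16.5 genotype comparisons was not tested.

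Before birth, Anxa1, Spp1, Anxa3 and Il33 were lower at E18.5 than at E16.5 in HE cells and Clu was higher. These are 4 and 1 of the 6 markers tested. Over all genes tested, 19.4% were called lower and 30.3% higher. Spp1, Anxa3, Il33 and Clu met the filter of 1 CPM in 2 libraries at their higher stage alone, so the count of calls is not set against these shares. Anxa1 read 18.85 and 27.75 CPM in the E16.5 pools and 2.55 and 4.2 CPM in the E18.5 embryos, and fell by 2.48 on the log2 scale (SE 0.34, FDR 0.00237, limma). Spp1 went from 10.2 and 4.55 CPM to 0.25 and 0.7 CPM (log2 fold change -2.44, SE 0.45, FDR 0.00648, limma). Both genes were lower in each embryo than in each pool. Anxa3 went from 9.45 and 4.05 CPM to 0.5 and 1.35 CPM (log2 fold change -1.95, SE 0.47, FDR 0.0167, limma). Il33 went from 3.95 and 6.6 CPM to 1.65 and 0.7 CPM (log2 fold change -1.53, SE 0.41, FDR 0.023, limma). The stages did not overlap for these genes either, and how many of all genes separate the stages is not given. Clu moved the other way, from 0.8 and 1.05 CPM to 2.35 and 2.65 CPM (log2 fold change 0.86, SE 0.32, FDR 0.0664, limma). The gap junction gene Gja1 was at 17.25 and 14.15 CPM at E16.5 and at 11.1 and 12.5 CPM at E18.5, a log2 difference of -0.38 that was not called (SE 0.24, FDR 0.23, limma). Ly6a, at 2.4 and 0 CPM and then at 0.25 CPM in both embryos, was too low to be tested.

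Of 22 further genes of fetal and regenerating epithelium, 8 of the 19 tested were lower at E18.5, 2 were higher and the others were not called. Among the YAP/TEAD targets 11 of 19 were lower and 3 higher. These 19 are entries for 18 genes, since Lats2 is listed under 2 overlapping gene identifiers, which are counted separately here and below. The mesenchymal markers given above were lower too, 9 of the 9 tested, and their part in the markers' fall was not tested. In sorted pools, fewer cells of a type and less RNA per cell cannot be told apart. Without either of the 2 E18.5 embryos none of the markers was called (FDR 0.164 to 0.308 for the 5 genes called with both), while their directions held.

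From E18.5 to the adult, Gja1 was lower and Clu was higher, and the other markers were not called over both regions together. Other cell types' markers moved in the same libraries. Of the Paneth cell markers 5 of 5 were higher in the adult, with a summed level of 106.75 to 115.25 CPM at E18.5 and of 10242 CPM or more in the adult libraries. Of the tuft cell markers 4 of 4 were higher, from at most 4.65 CPM to at least 168.9 CPM, and of the mesenchymal markers 7 of the 8 tested were lower. Their part in the markers' levels was not tested. Gja1 read 11.1 and 12.5 CPM in the embryos and 0, 0.25, 0.5 and 0 CPM in the adult libraries (log2 fold change -3.45, SE 0.27, FDR 3.1e-04, limma). No adult library came near the embryos. Clu was 2.35 and 2.65 CPM at E18.5 against 3.6 and 7.9 CPM in adult duodenum and 4.65 and 6.0 CPM in adult ileum (log2 fold change 0.86, SE 0.30, FDR 0.0974, limma). These were 1 of 6 tested markers called lower and 1 called higher, against 9.65% and 9.36% of all genes, and Gja1 met the filter through the embryos alone. Ly6a was at 0.25 CPM in both embryos and at 0.55, 1.8, 56.45 and 9.85 CPM in the adult libraries, with a log2 fold change of 2.53 over both regions that was not called (SE 1.28, FDR 0.224, limma). With the ileum alone as the adult group it was 4.32 (FDR 0.00393, limma) and Anxa3 was called too (1.31, FDR 0.0287, limma). Anxa1 was called lower with the duodenum alone (-1.70, FDR 0.00427, limma) and not with the ileum alone (0.28, FDR 0.64, limma). The regions of a mouse are not independent animals, and with their mean as 1 value per mouse Ly6a (3.50, FDR 0.00204, limma), Gja1, Anxa3 (0.77, FDR 0.0915, limma) and Clu were called. In the fits by region and by mouse, Ly6a and Anxa3 met the filter through the adult side alone. Anxa1 with the duodenum alone, like Gja1, met it through the embryos alone. These genes had to differ to be tested, and the shares of all genes called in these fits are not given. The Clu call was lost without either embryo and without 3 of the 4 adult libraries, the first duodenum being the exception (FDR up to 0.39 over all alternatives, limma). Spp1 was at most 0.7 CPM on both sides and was not tested.

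The further fetal genes did not move together between E18.5 and the adult, with 3 of the 17 tested higher and 3 lower. The RNA-binding protein gene Igf2bp1, a known oncofetal gene, fell by 6.29 on the log2 scale (SE 0.25, FDR 1.9e-05, limma). Ly6e, a relative of Ly6a that interferon also induces, rose by 4.13 (SE 0.28, FDR 1.6e-04, limma), and the interleukin 1 receptor antagonist gene Il1rn by 2.32 (SE 0.69, FDR 0.0615, limma). Of 14 interferon-induced genes, 10 were higher in the adult and 0 lower, with Oasl2 up by 4.26 (SE 0.62, FDR 0.00449, limma). Their summed level was 197.25 and 197.6 CPM at E18.5 and 635.55 to 1424 CPM in the adult libraries. YAP/TEAD targets were split, 3 of the 17 entries tested higher and 3 lower, with Axl down by 2.59 (SE 0.25, FDR 8.2e-04, limma) and Myof up by 1.96 (SE 0.53, FDR 0.0444, limma).

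**Figure D1:**
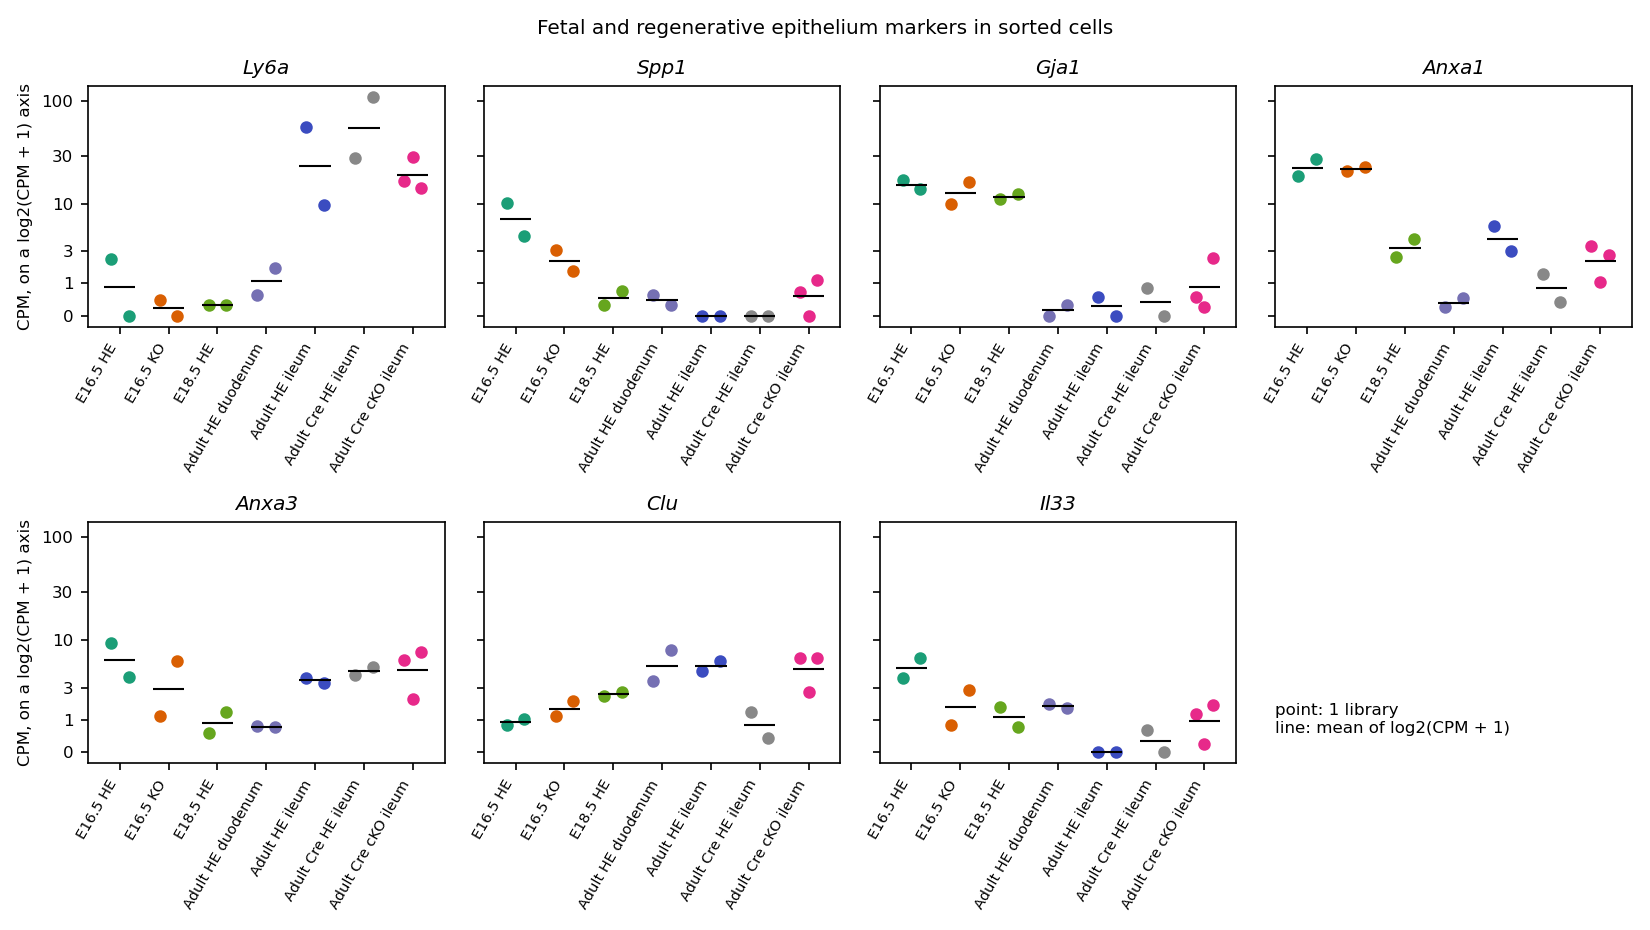
CPM of each marker on a log2(CPM + 1) axis in the 15 sorted libraries, 1 point per library and a bar at the mean of log2(CPM + 1) in the group. Gja1 is above 9 CPM in every prenatal library and below 3 CPM in every adult one, and Ly6a is above 9 CPM only in ileal libraries.

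Along the adult gut, Ly6a, Anxa1 and Anxa3 were higher in ileum than in duodenum, Il33 was lower, and Clu did not separate the regions. Over all genes tested, 2.24% were called higher and 4.64% lower. Each of the 4 called markers met the filter of 1 CPM in 2 libraries in its higher region alone, so that it had to differ to be tested, and their number is not set against these shares. Ly6a read 56.45 and 9.85 CPM in the ileum and 0.55 and 1.8 CPM in the duodenum of the same 2 mice (log2 fold change 3.58, SE 0.72, FDR 0.0398, limma). Anxa1 read 5.85 and 3.0 CPM against 0.2 and 0.45 CPM (1.99, SE 0.37, FDR 0.0296, limma). Anxa3 read 3.9 and 3.45 CPM against 0.75 and 0.7 CPM (1.44, SE 0.30, FDR 0.0445, limma). In each mouse and for each of these genes the ileum was the higher library. The alarmin gene Il33 was the reverse, at 0 CPM in both ileal libraries and at 1.8 and 1.6 CPM in the duodenum (-1.43, SE 0.31, FDR 0.0498, limma). An ileal level of 0 leaves room for up to 3 reads, and the duodenal values rest on about 10 and 7 reads. Clu had 4.65 and 6.0 CPM in ileum and 3.6 and 7.9 CPM in duodenum (-0.02, SE 0.37, FDR 0.986, limma). Spp1 and Gja1 were below 1 CPM in all 4 libraries. The 4 calls also held with the mouse as a replicate block, where 3.97% of all genes were called higher and 7.13% lower on 1 residual degree of freedom. They did not hold on fewer libraries, since 0 markers were called without either duodenal library or without the first ileal library, and 1 without the second. With no filter on low values 0 of the 4 were called.

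Ly6a in the Cre line gave a further set of ileal values, at 28.3 and 108.3 CPM in HE and at 16.9, 28.9 and 14.65 CPM in cKO libraries. All 5 lay above both duodenal values of the first line. Of the interferon-induced genes, 1 of the 14 was higher in ileum than in duodenum and 4 were lower. Their summed levels overlapped, at 704.1 to 1098 CPM in ileum and 635.55 to 1424 CPM in duodenum. In the Cre line the sum was 1566 to 2119 CPM in HE and 1371 to 1550 CPM in cKO libraries. Their part in the Ly6a values was not tested. The further fetal genes had 5 of the 15 tested higher in ileum and 1 lower. Markers of other cell types moved between the regions too. Of the tuft cell markers 4 of 4 were lower in ileum, with summed levels of 168.9 to 344.6 CPM there and of 1408 to 2483 CPM in duodenum. Of the enterocyte markers 4 of 5 were lower, with 170.65 to 192.25 CPM against 394.85 to 534.3 CPM. Of the immune markers 1 of the 7 tested was lower, and Ptprc, the CD45 gene of blood cells, had 12.2 and 27.05 CPM in ileum and 56.9 and 71.4 CPM in duodenum. The part of these cells in the markers' differences was not tested.

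Loss of Lgr5 at E16.5 gave no called marker. With 2 pools per genotype and low counts, this does not show that the markers were unchanged. Of the 6 tested, 0 were called by limma and 0 by edgeR on the recovered reads, against 0.527% of all genes in either direction by limma, and 2 had an unadjusted p below 0.05. With the shared litter of an HE and a KO pool as a replicate block it was again 0 of 6 (FDR 0.192 or more, limma), against 4.8% of all genes in either direction, or 830 genes where 91 were called without the block, on 1 residual degree of freedom. Spp1 was 10.2 and 4.55 CPM in the HE pools and 3.1 and 1.6 CPM in the KO pools (log2 fold change -1.27, SE 0.51, FDR 0.313, limma). Il33 was 3.95 and 6.6 CPM in HE and 0.8 and 2.8 CPM in KO pools (-1.23, SE 0.53, FDR 0.348, limma). In both genes the KO pools lay below the HE pools, while those of Clu lay above. How many of all genes separate the pools is not given. Anxa1 had the smallest difference, with 18.85 and 27.75 CPM in HE and 21.45 and 23.05 CPM in KO pools (-0.04, SE 0.26, FDR 0.961, limma). Gja1 read 17.25 and 14.15 CPM against 10 and 16.7 CPM (-0.25, SE 0.33, FDR 0.773, limma). Anxa3 differed between pools of 1 genotype more than between genotypes, at 9.45 and 4.05 CPM in HE and 1.15 and 6.0 CPM in KO (-0.91, SE 0.61, FDR 0.537, limma), and Clu was at most 2.0 CPM (0.40, SE 0.51, FDR 0.768, limma). The median log2 fold change was -0.58 over the 6 markers and 0.08 over all genes.

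In the same pools the mesenchymal sum was lower in KO, and so was that of the immune markers without Lyz2 (57.75 and 108.35 CPM in HE, 20.85 and 31.9 CPM in KO). Col3a1, a fibrillar collagen gene, fell by 2.10 (SE 0.40, FDR 0.0825, limma) and Cybb, a phagocyte oxidase gene, by 3.06 (SE 0.54, FDR 0.0701, limma). Their part in the lower Spp1 and Il33 values was not tested. Of the 18 further fetal genes tested 1 was higher in KO, the tight junction gene Cldn4 (1.19, SE 0.21, FDR 0.0701, limma), and 0 were lower. Of the 19 YAP/TEAD entries tested 1 was lower, the Hippo kinase gene Lats2 under 1 of its identifiers (-1.98, SE 0.39, FDR 0.0909, limma) and not under the other (-0.65, FDR 0.614, limma). The Wnt target Axin2 was higher (0.92, SE 0.17, FDR 0.0795, limma).

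Deletion of exon 16 in adult ileum also gave 0 called markers of 5 tested by limma, against 0.0504% of all genes in either direction, and 2 had an unadjusted p below 0.05. Clu read 1.35 and 0.35 CPM in the libraries labelled HE and 6.55, 2.65 and 6.55 CPM in those labelled cKO (log2 fold change 1.73, SE 0.44, FDR 0.864, limma). The labelled groups did not overlap, and how many of all genes separate them is not given. For Ly6a the values given above overlapped (-1.48, SE 0.53, FDR 0.864, limma). Xist was at most 1.7 CPM in the libraries labelled HE and 1162 to 1551 CPM in those labelled cKO, so labelled genotype and sex cannot be told apart here either. Without the 2 libraries whose genotype is in doubt, Ly6a was called lower in cKO (-2.71, FDR 0.0774, limma) on 1 HE library of 108.3 CPM against 16.9 and 14.65 CPM, the lone library being assumed to vary like the others, and Clu was not (2.48, FDR 0.17, limma). With the genotypes of these libraries exchanged, none of the 5 markers was called (Ly6a FDR 0.129, Clu FDR 0.269, limma). Anxa1, Anxa3 and Il33 gave log2 fold changes of 0.82, 0.03 and 0.63 (SE 0.45, 0.46 and 0.46, FDR 0.864 or more, limma). Of the further fetal genes and of the YAP/TEAD targets 0 were called.

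Per kilobase of exon, the order of the markers changed with stage and setting. In E16.5 HE cells the mean CPM per kilobase was highest for Anxa1 (8.0) and Spp1 (4.48), lower for Anxa3 (1.85), Il33 (1.83), Gja1 (1.53) and Ly6a (0.996), and lowest for Clu (0.269). In adult HE ileum Ly6a led with 27.5, followed by Clu (1.55), Anxa1 (1.52) and Anxa3 (1.01), while Gja1 stood at 0.0244 and Spp1 and Il33 at 0. The libraries of Anxa3, Il33 and Gja1 overlapped at E16.5, and Ly6a, resting on 3 and 0 reads, could not be placed against these or Clu. In ileum those of Anxa1 overlapped with Clu and with Anxa3. In organoids, prepared with another library kit and so only set beside the sorted cells, WT cultures with Rspo2 at 100 ng/ml had Clu at 24.7, Anxa3 at 11.3, Anxa1 at 8.55, Ly6a at 4.74, Spp1 at 1.56, Il33 at 0.289 and Gja1 at 0.013 CPM per kilobase, where among neighbours Spp1 and Il33 overlapped. KO cultures under the same condition had Clu at 64.0, Spp1 at 33.6, Anxa1 at 30.6, Anxa3 at 22.6, Ly6a at 13.7, Il33 at 1.94 and Gja1 at 0.039, and from Spp1 to Ly6a the 2 cultures of each neighbour overlapped.

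In organoids the Rspondin dose moved most markers. Over the 15 pairs of libraries of 1 culture and ligand, 87 of the 90 values of the 6 markers other than Gja1 were higher at 100 than at 5 ng/ml, the 3 exceptions being Il33. The share of all genes higher in these pairs is not given, and the values of 1 culture are not independent. With 1 model over the 30 libraries, in which libraries of 1 culture count as separate, 23 of 36 marker tests were called higher at 100 ng/ml and 0 lower. Under Rspo1 in WT organoids 5 of 6 markers were called, against 40.9% of all genes called higher. Under Rspo2 it was 5 of 6 against 24.3%, and under Rspo3 2 of 6 against 37.8%. In KO organoids 6 of 6 were called under Rspo1 against 21.9%, 1 of 6 under Rspo2 against 0.115%, and 4 of 6 under Rspo3 against 32.7%. The count under Rspo3 in WT was thus near the background. Spp1 met the filter of 1 CPM in 2 libraries through the 100 ng/ml libraries alone. Its only value at 5 ng/ml to reach 1 CPM was 1.15 CPM, in KO culture 7 with Rspo3. It therefore had to be higher in some high-dose libraries to be tested. Its calls, among them the 1 under Rspo2 in KO, are not set against these shares. With CPM, the median log2 fold change of all genes with dose was 0.17 to 0.28, and 72.7% to 76.6% of calls were higher at 100 ng/ml, leaving aside KO with Rspo2. With TMM scaling the medians were 0.01 to 0.03 and 49% to 52% of calls were higher in the same 5 contrasts. For KO with Rspo2 the median was 0.04 with CPM and -0.02 with TMM scaling, and all calls, 22 and 15, were higher. With TMM scaling 20 of the 23 marker calls held.

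The annexins and clusterin were the most abundant markers. Anxa3 in WT cultures went from 4.75, 2.2 and 2.4 CPM with Rspo1 at 5 ng/ml to 45.2, 23.6 and 26.65 CPM at 100 ng/ml, in the order of cultures 10, 5 and 30 (log2 fold change 2.99, SE 0.54, FDR 8.9e-05, limma). Clu went from 18.3, 6.5 and 3.9 CPM to 76.75, 62.95 and 50.25 CPM (2.83, SE 0.46, FDR 2.9e-05, limma). Anxa1 went from 2.85, 2.0 and 1.15 CPM to 18.55, 13.0 and 8.35 CPM (2.23, SE 0.54, FDR 0.00152, limma). No low-dose library reached a high-dose one in these 3 genes, and how many of all genes share this is not given. With Rspo2 the starting levels were higher and the changes were 1.82 for Anxa3 (SE 0.54, FDR 0.013, limma), 2.70 for Clu (SE 0.46, FDR 1.9e-04, limma) and 2.32 for Anxa1 (SE 0.54, FDR 0.00268, limma). With Rspo3 Anxa3 was called (1.79, SE 0.54, FDR 0.00789, limma), and Anxa1 (1.09, SE 0.54, FDR 0.0942, limma) and Clu (0.63, SE 0.46, FDR 0.261, limma) were not. Clu with Rspo3 started from 34.0, 16.85 and 11.7 CPM at the low dose and reached 40.1, 26.8 and 24.65 CPM.

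Ly6a was near the floor at the low dose in WT cultures and measurable at the high one. It read 0.1, 0 and 0.15 CPM with Rspo1 at 5 ng/ml and 2.7, 2.6 and 2.0 CPM at 100 ng/ml (log2 fold change 1.66, SE 0.35, FDR 3.9e-04, limma). With Rspo2 it read 0.45, 0.1 and 0.4 CPM and then 5.85, 6.5 and 4.8 CPM (2.35, SE 0.35, FDR 4.3e-05, limma). With Rspo3 it read 0.25, 0.9 and 0.65 CPM and then 2.25, 1.85 and 2.15 CPM (0.97, SE 0.35, FDR 0.0231, limma). The Rspo3 call was lost with TMM scaling, with no filter and without any 1 WT culture. In KO cultures Ly6a reached 9.85 and 7.0 CPM with Rspo1 (3.05, SE 0.42, FDR 5.4e-05, limma) and 22.35 and 7.2 CPM with Rspo3 (2.96, SE 0.42, FDR 8.0e-06, limma), in the order of cultures 7 and 2.

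Spp1 had the largest dose change among the markers, in KO organoids with Rspo2. There it went from 0.55 and 0.25 CPM to 79.8 and 30.9 CPM (log2 fold change 5.19, SE 0.58, FDR 1.1e-04, limma). It was among the 22 genes called in that contrast, whose low-dose KO library of culture 7 already had high values of other markers, such as 43.7 CPM of Anxa1, 68.5 CPM of Anxa3 and 104.65 CPM of Clu. Without KO culture 7 the Spp1 call was lost (FDR 0.0607, limma). With Rspo3 in KO it went from 1.15 and 0.25 CPM to 26.7 and 14.3 CPM (3.65, SE 0.58, FDR 2.5e-05, limma), and with Rspo1 from 0.25 and 0 CPM to 2.15 and 5.15 CPM (1.98, SE 0.58, FDR 0.0131, limma). The 5.15 CPM came from the KO culture 2 library that stood apart. Without that library, and without either KO culture, the Rspo1 call was lost. In WT organoids Spp1 differed widely between cultures, with 1.25, 6.15 and 0.3 CPM under Rspo2 at 100 ng/ml in cultures 10, 5 and 30. Its WT changes were 1.19 with Rspo1 (SE 0.47, FDR 0.0368, limma) and 1.39 with Rspo2 (SE 0.47, FDR 0.027, limma), and both calls were lost without culture 10 and without culture 5. Gm42793, which overlaps Spp1, read 3.8 to 11.3 CPM in KO with Rspo2 at 100 ng/ml.

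On the log2(CPM + 1) scale, which understates changes of low genes, Il33 had the smallest dose change of the 6 tested markers in all 6 contrasts. As a ratio of 100 to 5 ng/ml, its median was 2.63 in KO pairs and 1.86 in WT pairs. For Clu these medians were 2.575 and 4.19. In WT cultures Il33 was at most 0.55 CPM at 5 ng/ml and at most 1.15 CPM at 100 ng/ml, with log2 fold changes of 0.31, 0.46 and 0.01 for Rspo1, Rspo2 and Rspo3 (SE 0.45, FDR 0.447 or more, limma). In KO cultures it was called with Rspo1, from 0.6 and 0.55 CPM to 4.25 and 3.2 CPM (1.58, SE 0.55, FDR 0.033, limma), and this call was lost with no filter, with TMM scaling and without any 1 WT culture, whose libraries enter the shared estimate of spread. Without the KO culture 2 library that stood apart it was lost as well (FDR up to 0.0761 over all alternatives, limma). In KO culture 7 with Rspo3, Il33 was lower at 100 than at 5 ng/ml, 6.75 against 8.85 CPM. Gja1 never exceeded 0.55 CPM in an organoid library and was not tested, though within cultures it too was higher at 100 ng/ml in 8 of 9 WT and 6 of 6 KO pairs. For this count too the share of all genes is not given.

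**Figure D2:**
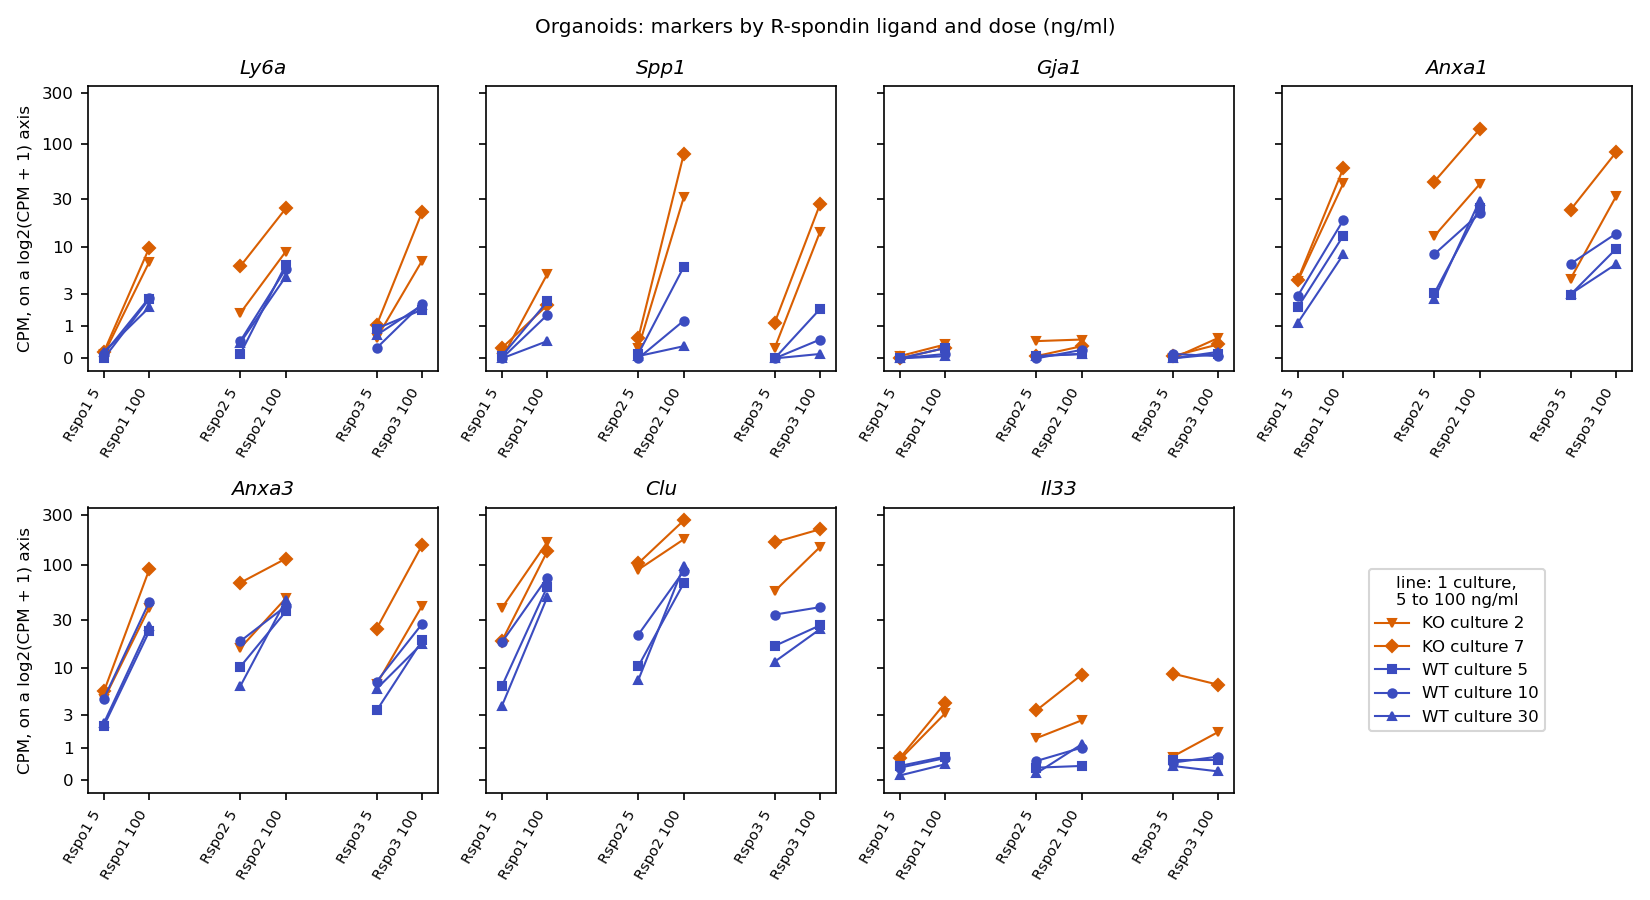
CPM of each marker on a log2(CPM + 1) axis in the 30 organoid libraries, with a line joining the 5 and 100 ng/ml libraries of 1 culture under 1 ligand, blue for WT and orange for KO. Nearly all lines rise, and for Clu and Il33 both KO cultures lie above all WT cultures in each of the 6 conditions. The share of all genes that do so is not given.

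The KO cultures had higher marker levels than the WT cultures. Averaged over the 6 libraries of each culture, Ly6a read 1.93, 1.99 and 1.69 CPM in WT cultures 10, 5 and 30 and 10.6 and 4.24 CPM in KO cultures 7 and 2. Spp1 read 0.55, 1.77 and 0.15 CPM against 18.4 and 8.48 CPM, and Clu 46.5, 31.9 and 32.7 CPM against 151.2 and 113.1 CPM. Both KO cultures stood above all WT cultures in these and in the other 4 markers. The share of all genes with that order is not given, so it is not read as particular to the markers. Anxa1 had culture means of 11.95, 9.14 and 8.42 CPM in WT and 58.4 and 22.8 CPM in KO, Anxa3 of 24.1, 15.9 and 17.7 CPM and of 77.0 and 26.2 CPM, and Il33 of 0.583, 0.458 and 0.392 CPM and of 5.42 and 1.71 CPM. For Anxa3 the gap between KO culture 2 and the highest WT culture was small against the spread of each genotype. In the limma test of culture means, with the embryo as the replicate, 0 of 6 markers were called, against 0.0889% of all genes called higher. All 6 had an unadjusted p below 0.05 in this limma test, and the share of all genes below it is not given. The nearest was Clu (log2 fold change 2.01, SE 0.27, FDR 0.0743, limma), then Spp1 (1.67, SE 0.26, FDR 0.12, limma). Without KO culture 2, 5 of the 6 were called, on 1 KO culture assumed to vary like the WT ones, and without WT culture 10 or 5 it was 1.

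By condition, 7 of the 36 genotype tests were called, all higher in KO. At 100 ng/ml these were 0 of 6 markers under Rspo1 (0.11% of all genes called higher, 4 markers with unadjusted p below 0.05), 1 of 6 under Rspo2 (0.763%) and 3 of 6 under Rspo3 (0.711%). At 5 ng/ml they were 0 under Rspo1 (0.0627%, 1 marker with unadjusted p below 0.05), 3 under Rspo2 (3.18%) and 0 under Rspo3 (0.11%, 2 markers with unadjusted p below 0.05). Spp1 was higher in KO with Rspo2 at 100 ng/ml (4.20, SE 0.53, FDR 6.8e-05, limma) and with Rspo3 at 100 ng/ml (3.61, SE 0.53, FDR 6.2e-04, limma). Under Rspo3 at 100 ng/ml Ly6a (2.17, SE 0.39, FDR 0.00547, limma) and Clu (2.56, SE 0.51, FDR 0.0162, limma) were higher as well, Clu with 218.7 and 149.25 CPM in KO. With Rspo2 at 5 ng/ml the called markers were Clu, at 104.65 and 91.05 CPM against 21.7, 10.5 and 7.55 CPM (2.92, SE 0.51, FDR 0.00295, limma), Ly6a, at 6.25 and 1.65 CPM (1.75, SE 0.39, FDR 0.0134, limma), and Anxa1, at 43.7 and 12.85 CPM (2.27, SE 0.60, FDR 0.0345, limma). The Spp1 call with Rspo2 at 100 ng/ml and the Clu call with Rspo2 at 5 ng/ml held in all 10 alternatives. The counts did not: 20 tests were called without KO culture 2, 3 without WT culture 5 or 30, 5 without WT culture 10, and 10 with the culture as a replicate block. KO values lay above all WT values in 6 of 6 conditions for Clu and Il33, in 5 for Anxa1, in 4 for Ly6a and Spp1, and in 2 for Anxa3 and Gja1. The share of all genes with such an order is not given, and the conditions share their cultures. Since the KO cultures were male and the WT cultures female, these differences cannot be told apart from a difference of sex.

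Of the further fetal genes, 5 of the 20 tested were higher in KO and 0 lower with Rspo2 at 5 ng/ml, against 3.18% of all genes higher, together with 9 of 13 Wnt targets and 4 of 6 stem cell genes. Of the 20 YAP/TEAD entries 2 were higher and 1 lower there. With each ligand at 100 ng/ml 1 fetal gene of 20 was higher, and with Rspo1 and Rspo3 at 5 ng/ml 0, while 0 YAP/TEAD entries were called in these 5 contrasts. With dose in WT organoids 6 of 20 fetal genes were higher and 1 lower under Rspo1, 7 and 1 under Rspo2, and 3 and 3 under Rspo3. Over all genes 40.9%, 24.3% and 37.8% were called higher under these ligands, so nothing particular to the fetal genes is read from their counts. Msln, the mesothelin gene, rose by 2.70 (SE 0.83, FDR 0.00879, limma) under Rspo1. Sprr1a, a cornified envelope gene often induced by damage, fell by 2.73 (SE 0.53, FDR 1.7e-04, limma) and Emp1 by 1.35 (SE 0.37, FDR 0.00398, limma) under Rspo3. Of the YAP/TEAD entries 10 of 20 were higher and 1 lower under Rspo1, 10 and 2 under Rspo2, and 4 and 1 under Rspo3, led by the phosphatase gene Ptpn14 (4.04, SE 0.30, FDR 9.8e-09 under Rspo1, limma). Wnt targets were higher in 12, 13 and 10 of 13, and the stem cell genes in 6 of 6 under each ligand, among them Lgr5 (4.49, SE 0.49, FDR 4.2e-07 under Rspo1, limma).

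**Figure D3:**
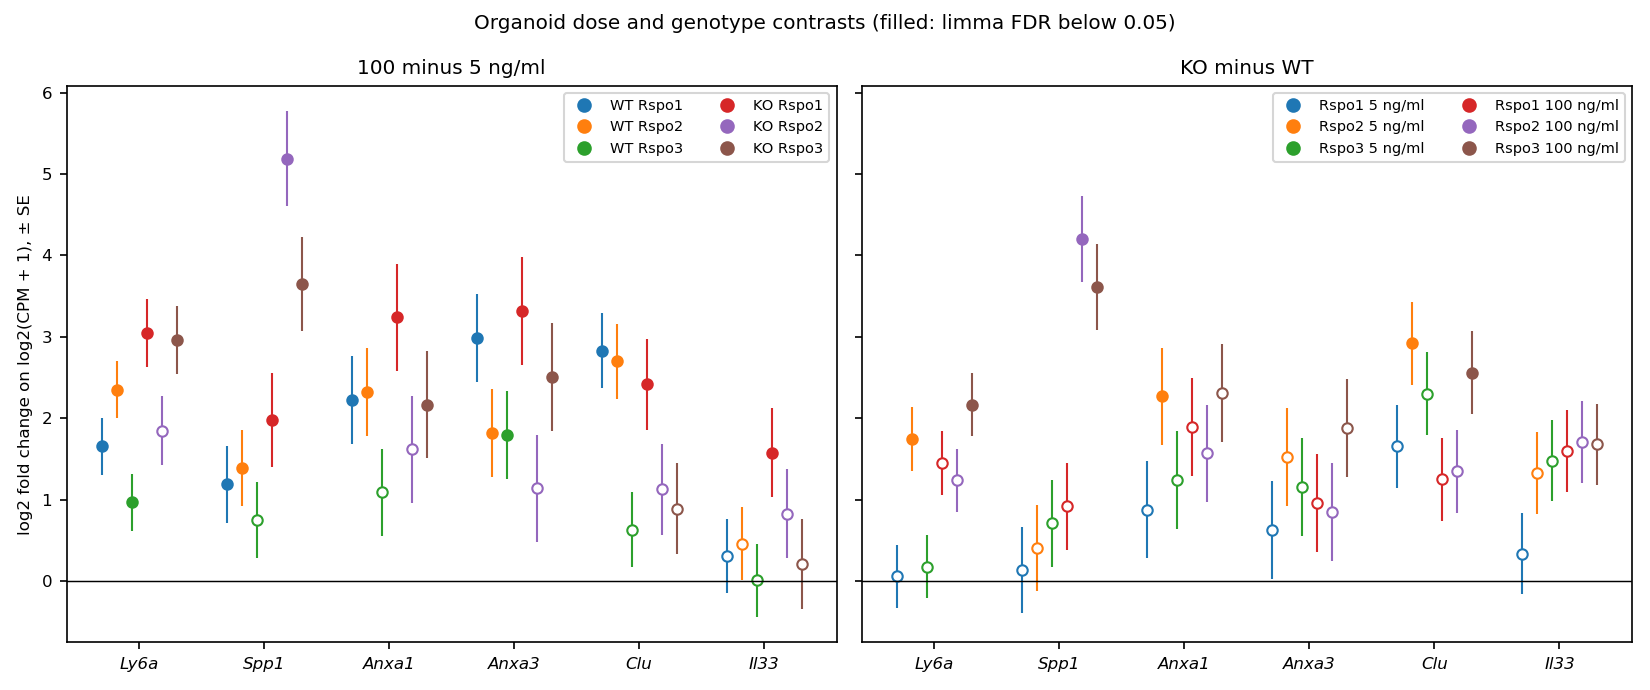
Log2 fold changes with SE bars of 6 markers in organoids, with the dose contrast (100 minus 5 ng/ml) for each genotype and ligand on the left and the genotype contrast (KO minus WT) for each ligand and dose on the right. Filled points passed the limma FDR of 0.05, and Spp1 has the highest values in KO with Rspo2 and Rspo3.

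On the log2(CPM + 1) scale, the dose response differed between genotypes for 1 marker under 1 ligand. The interaction of dose and genotype was called for Spp1 with Rspo2 (3.80, SE 0.74, FDR 0.0227, limma), 1 of 6 markers against 0.439% of all genes in either direction. With Rspo1 and with Rspo3 it was 0 of 6 against 0% of all genes, with 1 and 2 markers at an unadjusted p below 0.05. With Rspo3 the Spp1 value was 2.90 (SE 0.74, FDR 1, limma). The call for Rspo2 was lost with a pseudocount of 0.1 and without WT culture 10, WT culture 30, KO culture 7 or KO culture 2. Spp1 with Rspo2 at 5 ng/ml was 0 to 0.1 CPM in WT and 0.25 to 0.55 CPM in KO, where this scale understates a change. Its ratio of 100 to 5 ng/ml was 145 and 124 in KO cultures 7 and 2. In WT cultures 5 and 30 the ratio was 61.5 and 6.0, and WT culture 10 was at 0 CPM at the low dose.

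Between ligands at the same dose and genotype, 10 of 72 marker tests were called, against 14.8% of all gene tests over the 12 contrasts in either direction. With the culture as a replicate block, since each culture received every ligand, 23 were called, against 23.2%, the 10 among them. The marker shares lay near the background in the first fit. The largest group was KO at 5 ng/ml, where Rspo2 gave higher values than Rspo1 for 4 of 6 markers (13.6% of all genes called higher), namely Anxa3 (68.5 and 16.05 CPM against 5.7 and 4.65 CPM, log2 difference 2.48, SE 0.66, FDR 0.0123, limma), Anxa1 (2.21, SE 0.66, FDR 0.0238, limma), Ly6a (1.96, SE 0.42, FDR 0.00377, limma) and Clu (1.80, SE 0.56, FDR 0.0291, limma). Clu was also higher with Rspo3 than with Rspo1 there, 1 of 6 against 3.13% (1.80, SE 0.56, FDR 0.0309, limma), and Ly6a lower with Rspo3 than with Rspo2, 1 of 6 against 33.6% called lower (-1.30, SE 0.42, FDR 0.0149, limma). Without KO culture 7 all calls of Anxa1, Anxa3 and Clu at this dose were lost. Those of Anxa1 and Clu were also lost with no filter and without WT culture 5. Clu with Rspo2 was lost without KO culture 2 as well. Both Ly6a calls held in all 10 alternatives. In KO at 100 ng/ml Spp1 was higher with Rspo2 than with Rspo1, 1 of 6 against 0.0105% (3.53, SE 0.58, FDR 0.0337, limma). It was 1 of the 2 genes called in that contrast. This Spp1 call was lost with a pseudocount of 0.1, without WT culture 10 and without KO culture 7. Leaving out the KO culture 2 library that stood apart, which is part of the Rspo1 side, lost it too.

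In WT organoids the ligands differed in fewer markers. At 5 ng/ml Anxa3 was higher with Rspo2 than with Rspo1, 1 of 6 against 16.4% of all genes (18.75, 10.4 and 6.5 CPM against 4.75, 2.2 and 2.4 CPM, log2 difference 1.58, SE 0.54, FDR 0.0367, limma). At 100 ng/ml 2 of 6 were lower with Rspo3 than with Rspo2, against 9.04%, which were Clu (40.1, 26.8 and 24.65 CPM against 88.4, 67.8 and 98.05 CPM, -1.46, SE 0.46, FDR 0.0391, limma) and Ly6a (-1.12, SE 0.35, FDR 0.036, limma). No culture broke this order for either gene, and how many of all genes share it is not given. Both calls and that of Anxa3 were lost with TMM scaling and without any 1 WT culture. With the culture as a replicate block Anxa1 and Anxa3 were lower with Rspo3 than with Rspo2 as well, and Ly6a was higher with Rspo2 than with Rspo1 at 100 ng/ml (0.97, SE 0.23, FDR 0.0406, limma).

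Within cultures the markers went up and down together. After the mean of each culture was subtracted, Pearson's r between 2 markers over the 30 libraries ran from 0.609 (Il33 and Spp1) to 0.962 (Anxa1 and Anxa3), with a median of 0.754 over the 15 pairs without Gja1. The libraries share dose and ligand, so these values describe the common dose response. The genes most like Anxa3 by this measure were Ajuba (0.984), a LIM-domain regulator of Hippo signaling, and the laminin gene Lama5 (0.979). Ajuba was also close to Anxa1 (0.954), whose nearest gene was Mtcl1 (0.964). Ly6a was most like Lpcat4 (0.953) and Mtcl1 (0.952), Spp1 like Glis3 (0.904) and Zbed6 (0.867), and Clu like Smtnl2 (0.951) and Klhl13 (0.94). Il33 had the lowest values, with the basement membrane collagen genes Col4a2 (0.823) and Col4a1 (0.811).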

How the data were processed

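Sorted-cell RNA (Ovation SoLo kit) and organoid RNA (NEBNext rRNA depletion) gave 45 libraries. According to the methods and the submitters' processing notes, the authors trimmed reads with Trimmomatic 0.36, mapped them with STAR 2.5.3a to GRCm38.p4/mm10, counted genes with HTSeq 0.9.1 on Ensembl release 90, and deposited 2 tables of CPM. The CPM proved to be rounded up to steps of 0.05, which gave each library's depth (error on simulated tables at most 0.134%) and, for the E16.5 pools, whole reads (100% of low values within 0.13 reads). Genes reaching 1 CPM in a number of libraries equal to the smaller group's size (2 in organoids) were tested with limma 3.58.1 (trend, R 4.3.3) on log2(CPM + 1), a scale that understates changes of low genes. Thresholds were FDR 0.1 with a fold change of 1.5 in sorted cells, as in the study, and FDR 0.05 in organoids. Each sorted comparison was fitted on its own groups, and the organoids in 1 fit of 12 groups. edgeR 4.0.16 (quasi-likelihood) on the recovered E16.5 reads called 310 of 17276 genes, 52 higher and 258 lower in KO, against 91 by limma. The study, with its own edgeR test, reported more genes at these limits than either. Scripts were tested on simulated data. The tables were normalized separately and are only set side by side.

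Replicates are the pools, embryos, mice and cultures of the labels. Same-numbered libraries come from 1 litter at E16.5 (correlation of their deviations -0.0324), from 1 mouse in the regions (0.257) and from 1 culture in the organoids (median correlation 0.498 within a culture), so the block is given there. The members, the gene lists (further fetal genes, YAP/TEAD, interferon, Wnt, stem cell, mesenchymal and immune) and the rule for named genes were chosen with earlier results of these data known. All 7 markers were named in each comparison, with up to 3 further fetal genes and 2 of each other list by largest change among those called, and for likeness the 2 genes of at least 5 CPM with the highest correlation. Some genes that this rule names are not reported here. Alternatives were a pseudocount of 0.1, no filter, TMM scaling, 1 fit of all sorted libraries, a replicate block and leaving out each library or culture. Leaving out the KO culture 2 library that stood apart was added after seeing the data.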

Additional observations from a re-analysis of the deposited data

Results flagged for a closer look

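Ly6a in the 4 adult HE libraries was flagged because its highest library, the first ileum at 56.45 CPM, lay far from the others (9.85, 1.8 and 0.55 CPM), with a gap of 0.834 of the whole range, above Dixon's critical value for 4 samples. The 4 libraries cover 2 regions, the value rests on about 232 reads, and such a gap arises by chance in about 1 of 20 groups. The dose response of Spp1 with Rspo2 was flagged because it differed between genotypes, with an interaction of 3.80 on the log2(CPM + 1) scale (SE 0.74, FDR 0.0227, limma) from dose changes of 5.19 in KO and 1.39 in WT organoids. The low-dose values were 0 to 0.1 CPM in WT and 0.25 to 0.55 CPM in KO, where this scale understates a change. The KO libraries read 79.8 and 30.9 CPM at 100 ng/ml, above the 1.25, 6.15 and 0.3 CPM of the WT libraries, and genotype and sex cannot be told apart.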

How the results depend on the processing

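Low counts limit the sorted cells, where most marker values rest on fewer than 60 reads, and 2 or 3 cultures per genotype limit the organoids. Among single genes called in the reported fit, 400 alternative values kept the call, 119 lost it and 0 changed sign, and among those not called 594 stayed so, 43 passed the threshold and 19 changed sign. The number of markers called moved as follows. For adult against E18.5 (2 as reported) it was 1 with no filter, 4 with ileum alone, 4 with the mean of the regions, and 1 to 2 on leaving out a library. For ileum against duodenum (4) it was 0 with no filter and 0 to 1 on leaving out a library, for E18.5 against E16.5 (5) 0 to 5, and for cKO against HE (0) 1 without the 2 doubtful libraries. For organoid genotype (7) it was 3 to 20 on leaving out a culture, for culture means (0) 0 to 5, and for dose by genotype (1) 0 to 1 and 0 with a pseudocount of 0.1. For ligands (10) it was 4 with no filter, 4 to 16 on leaving out a culture, and 23 with the culture as a replicate block. The block moved no other count by more than 1.5 times, at 26 for dose and 10 for genotype. With the litter as the block E16.5 KO against HE stayed at 0. In E18.5 against E16.5 (correlation -0.0186) and the Cre line (0.161 and 0.419) libraries share only a number, and the block gave 4 and 0 calls. Sign changes, all among genes not called and on the log2 scale, were as follows. On leaving out a library, E16.5 KO against HE gave -0.60 to 0.09 for Gja1 and -0.31 to 0.23 for Anxa1 (0.01 without KO pool 1), ileum against duodenum -0.50 to 0.45 for Clu (0.13 without the first ileum), and cKO against HE -0.26 to 0.48 for Anxa3 (-0.14 and -0.10 without the first cKO and HE libraries). Anxa3 there was -0.00 with pseudocount 0.1, -0.06 with TMM and -0.26 with the replicate block. In adult against E18.5, Il33 was 0.35 with duodenum alone and Anxa1 0.28 with ileum alone. For dose with Rspo3, Il33 was -0.05 (pseudocount 0.1), -0.09 (TMM) and -0.08 (without WT culture 10) in WT, and -0.35 to 0.76 without a KO culture in KO. For genotype at 5 ng/ml without a KO culture, Spp1 with Rspo1 ranged from -0.02 to 0.30 and Ly6a with Rspo3 from -0.02 to 0.38. TMM scaling changed the calls higher in E16.5 KO from 15 of 91 to 6 of 83, and the share of higher calls in Rspo2 at 5 ng/ml KO against WT from 70% to 54.9%, and in the ligand contrasts Rspo3 minus Rspo2 from 28.9% to 51.7% (WT 100), 28.3% to 49% (WT 5) and 28.1% to 49% (KO 5), Rspo3 minus Rspo1 from 22.5% to 40.8% (WT 5), 19.3% to 37.5% (KO 5) and 0 of 1 to 149 of 180 calls (WT 100), and Rspo2 minus Rspo1 from 72.1% to 50.2% (WT 5) and from 75.7% to 52% (KO 5). It moved the median of all genes from 0.23 to 0.10 for E18.5 against E16.5. The causes were not tested.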
